A study of Mus musculus with 54 samples.

Results

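Mouse embryonic stem (ES) cells that had turned on a T reporter were set against an unsorted culture that had begun to leave pluripotency. The comparison is between sorted mesendoderm (ME) and day 4 without LIF (leukemia inhibitory factor, which ES cells need to stay undifferentiated), each a column of a deposited table of gene expression. It rests on 2 of the 54 samples of the series, and the table covers 12 samples in 7 columns. The series studies the noncoding RNA Haunt and the neighbouring HOXA genes in ES cells and their derivatives. The ME library is 1 library from T-GFP ES cells, a line with GFP in T, of strain 129/Ola, kept for 6 days without LIF and sorted for GFP by flow cytometry. The day 4 library is 1 library from CJ7 ES cells, wild type (WT), of strain 129S1/SVImJ, kept for 4 days without LIF and not sorted. Both were grown in medium with fetal calf serum, and both were made from poly(A) RNA with a stranded kit. The labels do not say what the insertion of GFP does to T itself. Line, strain, sort and day therefore change together between the libraries, and their parts in a difference cannot be told apart. For reference, the table also holds the authors' means over libraries of days 0 (3 libraries), 2 (2 libraries) and 6 (3 libraries), all unsorted and WT. They are of the lines CJ7 and JF4 at day 0, CJ7 and J1 at day 2 and all 3 at day 6, with J1 of strain 129S4/SvJae and the others of 129S1/SVImJ. The table further holds single libraries of neural progenitor cells (NPC, sorted on Sox1-GFP) and neural stem cells (NSC), both from 46C cells of strain 129/Ola.

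The primitive streak is the site in the early embryo where epiblast cells lose their epithelial form and become mesoderm and endoderm. T (Brachyury), a T-box transcription factor, is switched on there by Wnt and Nodal signals, and cells that carry it but have not yet chosen between mesoderm and endoderm are called mesendoderm. Cells that leave the streak early and meet BMP form lateral, cardiac and extraembryonic mesoderm, and those that leave later form the paraxial mesoderm that becomes the somites. ES cells pass through a like sequence when LIF is withdrawn in serum.

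Values are FPKM, fragments counted per kilobase of transcript and scaled to sequencing depth, which the authors deposited. Differences are ME minus day 4 on the log2(FPKM + 1) scale, which understates the change of low genes. Of 39067 entries in the table, 12510 reached 1 FPKM in at least 2 of the 7 columns and were compared. With 1 library on each side there is no test and no error of the difference, and a gene is called here where the difference is at least 1 log2 unit. By this rule 506 genes were higher in ME (4.04% of those compared) and 498 were lower (3.98%), and at 2 log2 units 76 and 84 (0.608% and 0.671%). The median difference over all genes was 0.000865. As a guide to the spread between libraries, 2 WT libraries of 1 condition in the other deposited table differed by 1 log2 unit or more in 1.69% of 15705 genes at day 2 of retinoic acid and in 2.19% at day 4. Steps between low values put the depth at about 40.6 M reads in ME and 36.5 M at day 4, an estimate that rests on 11 and 16 entries. A gene at 1 FPKM thus has about 40.6 reads per kilobase in ME and 36.5 at day 4. Across the 12510 genes ME correlated with day 4 at r = 0.940, with the day 6 mean at 0.945, the day 2 mean at 0.930, the day 0 mean at 0.883, NPC at 0.867 and NSC at 0.780. Genes are not replicates, so these values describe the columns only, and the day 6 and day 0 columns are means and so carry less noise than a single library.

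**Figure D1:**
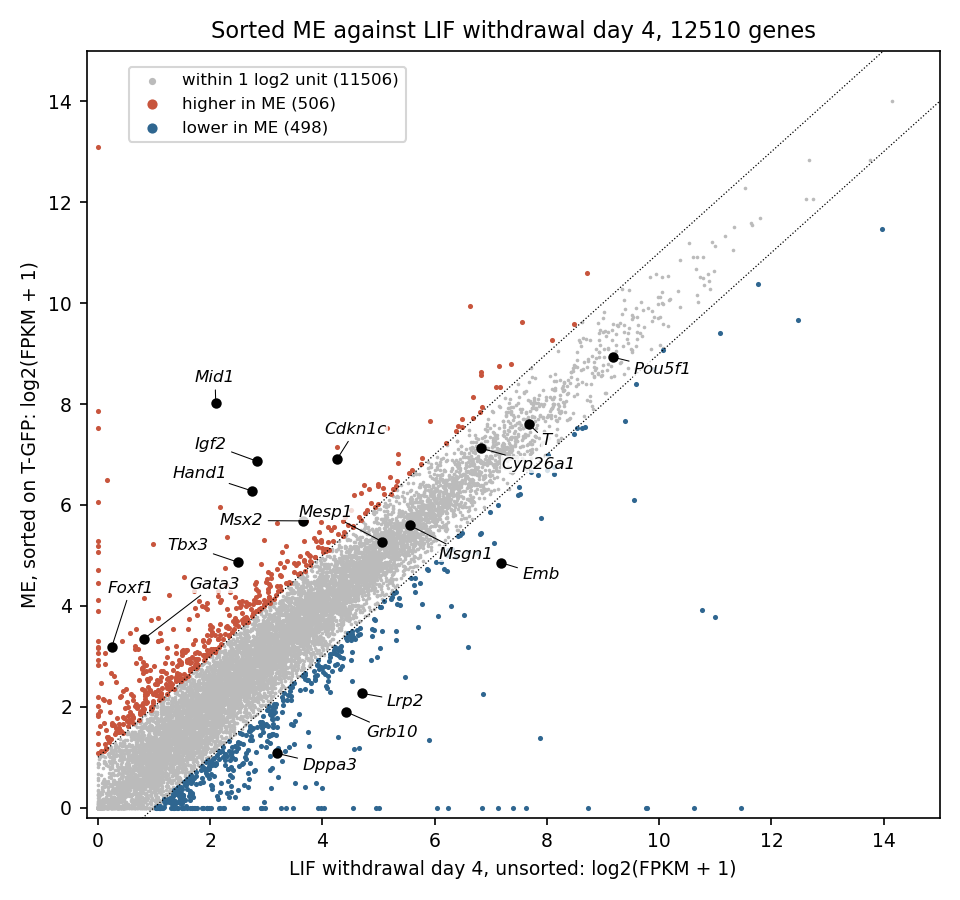
Each point is 1 of 12510 genes, with log2(FPKM + 1) in ME on the y axis and at day 4 on the x axis, and the dotted lines mark a difference of 1 log2 unit. The 506 genes above and 498 below the lines are coloured, and T, Mesp1, Msgn1, Cyp26a1 and Pou5f1 lie between the lines while Hand1, Igf2, Mid1, Msx2 and Tbx3 lie above and Emb, Lrp2, Grb10 and Dppa3 below.

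Mesp1, Msgn1 and Cyp26a1 are the markers chosen for this comparison, and all are genes of the streak or early mesoderm. Mesp1 encodes a basic helix-loop-helix factor of the earliest cardiac and cranial mesoderm, Msgn1 one of the presomitic mesoderm, and Cyp26a1 an enzyme that breaks down retinoic acid in the streak. Their promoters are shown because these genes are the chosen markers, as the 250 bases before the annotated start from RefSeq on GRCm38.p6, with the searched motifs in capitals. The expression table is on mm9, so these coordinates belong to the sequences alone. Motifs were searched on both strands and are AGGTGTGA and its core AGGTGT for T-box factors, CTTTGAA and CTTTGAT for the LEF/TCF factors of the Wnt pathway, AGGTCA and AGTTCA for half-sites of the retinoic acid receptor, and the E-boxes CACGTG and CAGATG.
Msgn1, chr12:11208949-11209198, minus strand: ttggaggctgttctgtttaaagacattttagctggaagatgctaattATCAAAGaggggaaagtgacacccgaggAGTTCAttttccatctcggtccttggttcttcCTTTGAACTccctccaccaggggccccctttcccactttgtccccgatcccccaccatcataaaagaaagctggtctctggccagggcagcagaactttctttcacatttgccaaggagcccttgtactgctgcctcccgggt
Mesp1, chr7:79793591-79793840, minus strand: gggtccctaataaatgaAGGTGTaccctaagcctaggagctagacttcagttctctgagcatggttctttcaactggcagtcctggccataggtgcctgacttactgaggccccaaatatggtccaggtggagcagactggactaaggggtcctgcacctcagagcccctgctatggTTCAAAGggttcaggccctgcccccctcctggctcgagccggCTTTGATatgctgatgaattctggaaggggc
Cyp26a1, chr19:37697558-37697807, plus strand: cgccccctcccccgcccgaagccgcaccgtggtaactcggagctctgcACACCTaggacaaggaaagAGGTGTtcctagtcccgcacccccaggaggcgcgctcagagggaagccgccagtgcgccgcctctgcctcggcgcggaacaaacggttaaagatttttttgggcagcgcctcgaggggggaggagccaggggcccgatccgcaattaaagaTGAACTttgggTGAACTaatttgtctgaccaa

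The Msgn1 window holds CTTTGAA at position -143 and CTTTGAT, on the other strand, at -203, where -1 is the base before the start and a position is the leftmost base of the match as printed. It also holds AGTTCA at -175 and, on the other strand, at -140, where it overlaps CTTTGAA. The Mesp1 window holds AGGTGT at -233, CTTTGAA on the other strand at -73 and CTTTGAT at -31. The Cyp26a1 window holds AGGTGT at -183 and, on the other strand, at -202, and a pair of AGTTCA half-sites on the other strand at -32 and -21. Of all 27025 promoter windows of this length 12.0% hold AGGTGT, 1.14% AGGTGTGA, 4.64% CTTTGAA, 3.23% CTTTGAT, 13.8% AGGTCA, 11.9% AGTTCA, 6.05% CACGTG and 14.5% CAGATG. The longer T-box site AGGTGTGA, AGGTCA and both E-boxes are in none of the 3 windows. Of the 25 named genes with the largest positive difference 12 have a window, and 3 of these hold AGGTGT. A match describes letters in a window and does not show that a factor binds there.

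The 3 markers were high in both libraries and differed little between them. Mesp1 (mm9 chromosome 7, 86937127 to 86938476) was listed at 37.7 FPKM in ME, against 32.4 FPKM at day 4, a difference of 0.21. Msgn1 (chromosome 12, 11215188 to 11215754) was listed at 47.4 FPKM in ME, against 46.0 at day 4 (0.04). Cyp26a1 (chromosome 19, 37772298 to 37776026) was listed at 139 FPKM in ME, against 112 at day 4 (0.30). At days 0 and 2 Mesp1 and Msgn1 stood below 0.1 FPKM and Cyp26a1 at 1.76 and 3.13. The day 6 means were 6.61 FPKM for Mesp1, 20.7 for Msgn1 and 92.3 for Cyp26a1, so all 3 markers were higher in ME than in unsorted cells of day 6. In NPC the values were 0 for Mesp1 and Msgn1 and 3.68 for Cyp26a1.

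T, the gene whose reporter gated the sort, was as high in the unsorted day 4 library as in ME. T (chromosome 17, 8627288 to 8635361) was listed at 192 FPKM in ME, against 204 FPKM at day 4, a difference of -0.09. Over the course of LIF withdrawal it was listed at 1.40, 18.4, 204 and 56.1 FPKM at days 0, 2, 4 and 6. In these bulk libraries fewer cells of a type and less RNA per cell cannot be told apart. The ME library thus stood above the day 6 mean of its own day by 1.76 log2 units in T, a gene that the sort itself selected, and level with day 4.

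Primitive streak factors were strongly on in both libraries. Of 12 genes on the list 11 were compared, 0 were higher and 1 was lower by the fold rule, with a median of 0.40. Over all genes 4.04% were higher and 3.98% lower, the shares to set beside the day 4 counts of this and every later list. Mixl1, a homeobox gene of the streak, was listed at 115 FPKM in ME, against 67.1 at day 4 (0.77). Eomes, a T-box gene needed to leave the epiblast state, was at 90.8 FPKM in ME, against 67.6 at day 4 (0.42). Gsc, a homeobox gene of the anterior streak and organizer, was at 26.4 FPKM in ME, against 19.3 at day 4 (0.43). All 3 were above day 4 without reaching the fold. Evx1, a homeobox gene of the posterior streak, was at 20.1 FPKM in ME, against 10.7 at day 4 (0.85), and Sp5, a zinc finger target of Wnt, at 62.2 in ME, against 33.2 at day 4 (0.88).

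Foxa2, a forkhead factor of axial mesoderm and endoderm, was lower, at 1.32 FPKM in ME, against 3.68 at day 4 (-1.01). Lhx1, a LIM homeobox gene of anterior mesendoderm, was at 22.5 FPKM in ME, against 36.4 at day 4 (-0.67), and Fst, the secreted activin antagonist follistatin, at 91.7 in ME, against 117 at day 4 (-0.35). Tbx6, a T-box gene of paraxial mesoderm, did not reach the filter, at 0.668 FPKM in ME, against 0.631 at day 4. Against the day 6 mean the same list had 9 of 11 members higher in ME and 0 lower, with a median of 1.76, beside 2.14% of all genes higher and 7.59% lower. T, which the sort itself selected, is among the 9, and the median is T's own value. The comparisons with day 4 and with day 6 share the ME library.

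**Figure D2:**
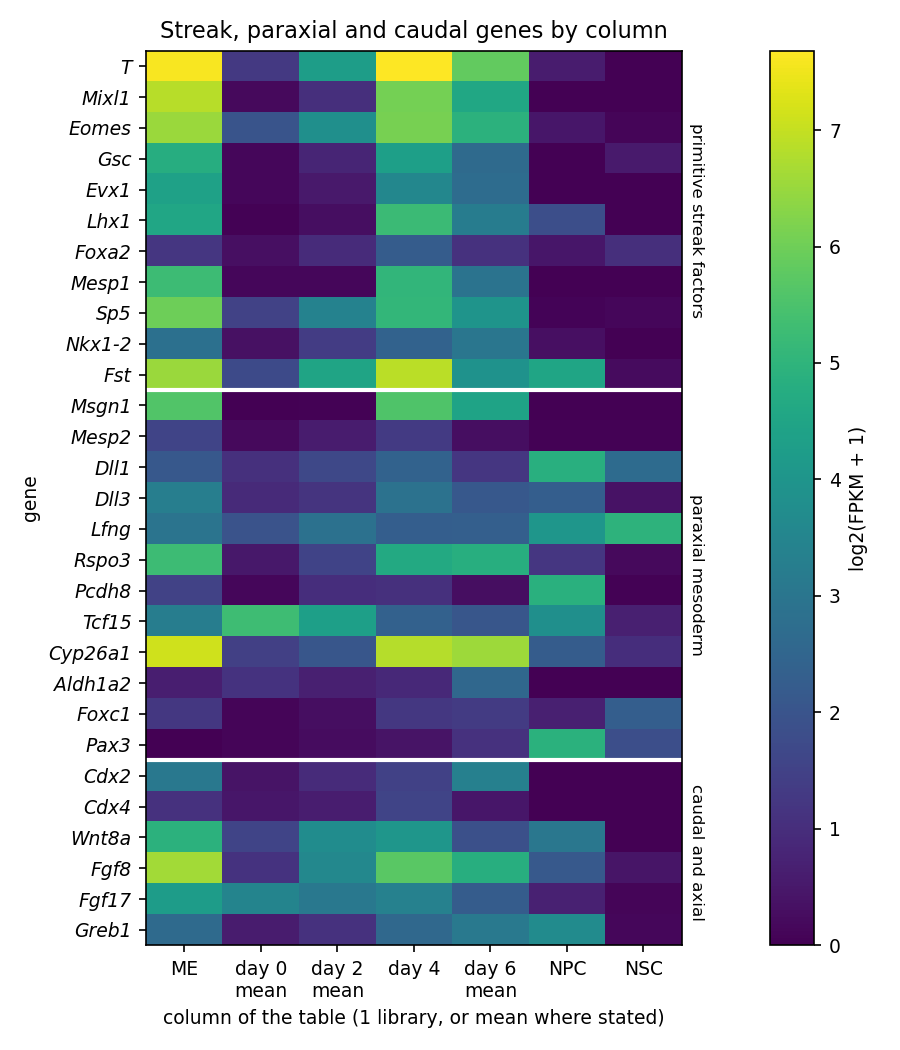
Colour gives log2(FPKM + 1) for the streak, paraxial and caudal genes that were compared (rows) in the 7 columns of the table, where ME, day 4, NPC and NSC are 1 library each and days 0, 2 and 6 the authors' means. T, Mixl1, Eomes, Mesp1 and Msgn1 are bright in ME and at day 4, paler in the day 6 mean and dark at day 0 and in NSC.

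The paraxial mesoderm list includes the 3 markers. Of its 18 genes 13 were compared and 0 were called in either direction, with a median of 0.27. The largest differences were in Tcf15, a bHLH gene of early somites that ES cells also carry, at 8.51 FPKM in ME, against 4.19 at day 4 (0.87), and in Lfng, a Notch modifier of the segmentation clock, at 6.80 in ME, against 3.88 at day 4 (0.67). Rspo3, a secreted enhancer of Wnt signalling, was at 37.2 FPKM in ME, against 24.4 at day 4 (0.59). Genes of formed somites were low: Meox1 was at 0.0751 FPKM in ME, against 0.125 at day 4, Foxc2 at 0.00992 in ME, against 0.0331 at day 4, and Pax3 at 0 in ME, against 0.323 at day 4. The clock genes Hes7 and Ripply2 were listed at 0 in ME, against 0.0378 and 0 at day 4.

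Of 14 caudal genes 9 were compared and 1, Cdx2, was called higher, with a median of 0.85 and 8 of the 9 above day 4. Cdx2, a homeobox gene of the posterior body and of trophoblast, was listed at 7.51 FPKM in ME, against 1.81 at day 4 (1.60). Its day 6 mean was 9.13 FPKM, above both. The secreted signals Wnt8a, Fgf8 and Fgf17 stood just inside the fold: Wnt8a at 29.3 FPKM in ME, against 15.5 at day 4 (0.88), Fgf8 at 97.5 in ME, against 51.7 at day 4 (0.90), and Fgf17 at 17.9 in ME, against 9.29 at day 4 (0.88). Cdx4 was at 1.13 FPKM in ME, against 1.96 at day 4 (-0.48). The notochord genes Noto and Shh were near 0 in both, Noto at 0.0723 FPKM in ME, against 0.0201 at day 4, and Shh at 0 in ME, against 0.0677 at day 4.

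Components of the signals that induce the streak differed in a few members. In the Wnt list 3 of 16 genes were higher and 0 lower, beside 4.04% and 3.98% of all genes (median 0.47). These were Nkd1, a feedback inhibitor of the pathway, at 20.7 FPKM in ME, against 7.24 at day 4 (1.40), the receptor gene Fzd10 at 18.4 in ME, against 7.21 at day 4 (1.24), and Notum, a secreted Wnt inhibitor, at 1.94 in ME, against 0.262 at day 4 (1.22). Each of these is a known Wnt target or component, and Dkk1, another secreted inhibitor, was at 7.44 FPKM in ME, against 4.84 at day 4 (0.53). In the Nodal list 1 of 11 was higher and 0 lower, beside the same shares of all genes (median 0.32). It was Foxh1, the DNA-binding partner of the Nodal effectors Smad2 and Smad3, at 39.5 FPKM in ME, against 13.5 at day 4 (1.48). The ligand gene Nodal was at 15.9 FPKM in ME, against 12.2 at day 4 (0.36), and the inhibitor Lefty2 at 41.9 in ME, against 26.8 at day 4 (0.63).

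The FGF and Notch lists had no called member. Among 16 FGF genes the median was 0.35, with Spry2, a feedback inhibitor, at 27.8 FPKM in ME, against 14.8 at day 4 (0.87), and Etv4, a target factor, at 5.61 in ME, against 8.96 at day 4 (-0.59). Among 11 Notch genes compared, of 14 listed, the median was 0.29, with the ligand gene Jag1 at 1.60 FPKM in ME, against 3.08 at day 4 (-0.65), and the target Hes1 at 30.8 in ME, against 22.5 at day 4 (0.44).

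The BMP pathway list held the largest number of genes called higher in ME of the 28 lists. The lists differ in size, and by share the trophoblast list, with 4 of 8 higher, stood above it. Of 15 compared 6 were higher and 0 lower, beside 4.04% and 3.98% of all genes, with a median of 0.83 that was 0.49 without the filter on low values. The ligand gene Bmp4 (chromosome 14) was listed at 38.0 FPKM in ME, against 11.8 at day 4 (1.61), and the ligand gene Bmp7 at 5.24 in ME, against 1.73 at day 4 (1.19). The inhibitor of differentiation Id1, a direct target, was at 38.0 FPKM in ME, against 13.8 at day 4 (1.40). Its relatives Id2, Id3 and Id4 were within the fold (-0.11, 0.49 and -0.11), as was the ligand gene Bmp2 (-0.06). The homeobox targets Msx1 and Msx2 were called higher, Msx1 at 46.4 FPKM in ME, against 16.1 at day 4 (1.47), and Msx2 (chromosome 13, 53562250 to 53568149) at 50.4 in ME, against 11.6 at day 4 (2.03).

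The intracellular inhibitors of the pathway were also above day 4. Smad7 was listed at 5.10 FPKM in ME, against 2.03 at day 4 (1.01, and 0.98 after centring on the median, which ends its call), and Smad6 at 3.61 in ME, against 1.59 at day 4 (0.83), just inside the fold. Nog, the secreted antagonist noggin, was at 1.07 FPKM in ME, against 2.13 at day 4 (-0.60). Beside the day 6 mean the list stood on the other side, with 0 of 15 higher and 6 lower in ME and a median of -0.61. Bmp4 reached 97.4 FPKM there and Msx2 76.2, while Bmp7 at 3.07 and Msx1 at 25.6 stayed below ME.

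**Figure D3:**
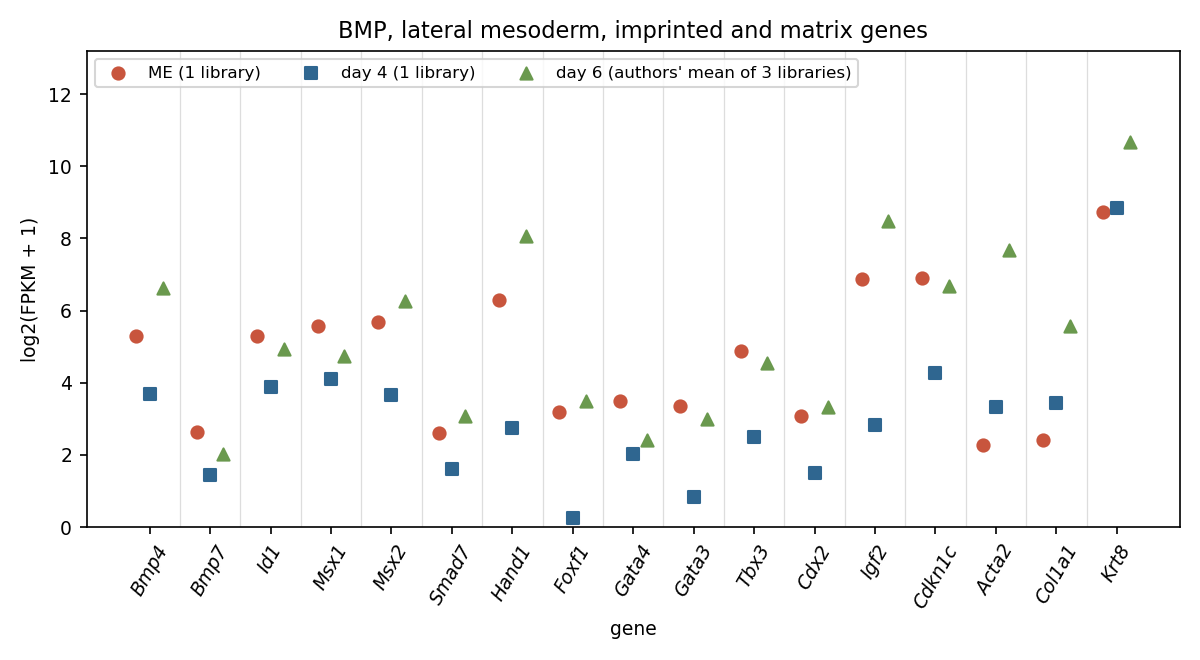
Points give log2(FPKM + 1) on the y axis for 17 genes of the BMP, lateral mesoderm, imprinted and matrix groups, as circles for ME (1 library), squares for day 4 (1 library) and triangles for the day 6 mean of 3 libraries. From Bmp4 to Cdkn1c the circle lies above the square, and for Hand1, Igf2, Acta2, Col1a1 and Krt8 the triangle lies well above the circle.

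Hand1 and Foxf1, factors of lateral mesoderm, had the largest differences of the cardiac mesoderm list. Of 14 cardiac mesoderm genes compared 4 were higher, Hand1, Foxf1, Bmp4 and Gata4, and 0 lower (median 0.25). Over all genes 4.04% were higher and 3.98% lower. Hand1 (chromosome 11, 57642215 to 57645649), a bHLH factor of lateral and extraembryonic mesoderm and trophoblast, was listed at 76.7 FPKM in ME, against 5.68 at day 4 (3.54). Its values at days 0, 2, 4 and 6 were 3.84, 2.54, 5.68 and 268 FPKM, so ME stood between day 4 and day 6. Foxf1 (chromosome 8, 123608286 to 123612054), a forkhead factor of lateral plate and extraembryonic mesoderm, was at 8.13 FPKM in ME, against 0.188 at day 4 (2.94), with a day 6 mean of 10.3.

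Gata4, a zinc finger factor of heart and endoderm, was listed at 10.2 FPKM in ME, against 3.07 at day 4 (1.45), and had a day 6 mean of 4.37. Hand2 was at 5.72 FPKM in ME, against 2.55 at day 4 (0.92). Tnnt2, cardiac troponin T, was at 1.48 FPKM in ME, against 3.74 at day 4 (-0.94), Actc1, cardiac actin, at 1.50 in ME, against 3.52 at day 4 (-0.86), and Myl7, atrial myosin light chain, at 0.914 in ME, against 2.34 at day 4 (-0.80). Nkx2-5, the early heart homeobox gene, did not reach the filter, at 0.134 FPKM in ME, against 0.298 at day 4.

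Blood and endothelial genes gave a mixed picture. Of 9 compared 1 was higher and 1 lower, with a median of 0.77. Where only genes of at least 5 FPKM in 2 columns were kept, 2 genes remained, Kdr and Flt1, with a median of -0.63. Lmo2, a partner of the blood-forming bHLH factors, was at 4.20 FPKM in ME, against 1.34 at day 4 (1.15). Flt1, a receptor for VEGF, was at 1.04 FPKM in ME, against 7.40 at day 4 (-2.04), while Kdr, the VEGF receptor of the earliest mesoderm, was at 14.4 in ME, against 7.97 at day 4 (0.77). Runx1, a factor of blood stem cells, was at 1.80 FPKM in ME, against 0.410 at day 4 (0.99). The list summed to 29.2 FPKM in ME, 23.2 at day 4 and 97.3 in the day 6 mean. Markers of differentiated blood were at or near 0 in both libraries. The embryonic globin Hbb-bh1 was listed at 0 in ME, against 0.0738 FPKM at day 4 and 40.9 in the day 6 mean, and Gata1 at 0 in ME, against 0.0494 at day 4.

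In both endoderm lists more genes were called lower than higher in ME, beside 3.98% lower and 4.04% higher of all genes. Of 8 definitive endoderm genes compared 0 were higher and 2 lower (median -0.36), Foxa2 and Trh, the thyrotropin-releasing hormone gene, at 6.82 FPKM in ME, against 19.7 at day 4 (-1.40). Sox17, the factor that defines endoderm, was below the filter, at 0.725 FPKM in ME, against 1.24 at day 4. Cer1, a secreted Nodal and BMP antagonist of anterior endoderm, was listed at 0.426 FPKM in ME, against 5.90 at day 4, and did not pass the filter because no other column reached 1 FPKM. Of 10 extraembryonic endoderm genes compared 1 was higher, Gata4, and 2 were lower (median -0.05). Lrp2, the endocytic receptor megalin, was at 3.82 FPKM in ME, against 25.04 at day 4 (-2.43), and Sparc, a matrix protein, at 42.6 in ME, against 88.3 at day 4 (-1.04). The visceral endoderm genes Afp and Ttr were listed at 0 in both libraries, and Sox7 was at 0.00814 FPKM in ME, against 0.0633 at day 4.

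Among 8 trophoblast genes compared 4 were higher and 0 lower, beside 4.04% and 3.98% of all genes, with a median of 0.98. Hand1 and Cdx2 are shared with the mesoderm lists. Gata3, a zinc finger factor of trophoblast, was at 9.17 FPKM in ME, against 0.764 at day 4 (2.53), with a day 6 mean of 6.97. Tfap2c, an AP-2 factor that trophoblast and germ cells share, was at 16.6 FPKM in ME, against 7.80 at day 4 (1.005, and 0.98 after centring on the median, which ends its call). The keratins of simple epithelium were within the fold and differed in direction. Krt8 was at 427 FPKM in ME, against 459 at day 4 (-0.11), and 1619 in the day 6 mean. Krt18 was at 207 FPKM in ME, against 335 at day 4 (-0.69), and 1271 in the day 6 mean. Krt7 was at 6.22 FPKM in ME, against 3.74 at day 4 (0.61). Elf5 was listed at 0 in ME, against 0.102 FPKM at day 4, and Tpbpa, a marker of the placental spongiotrophoblast, at 0 in both. Summed over its 10 genes the list came to 751 FPKM in ME, 815 at day 4 and 3217 in the day 6 mean. Krt8 and Krt18 made up most of each sum, so the sums say little of the other members.

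Pluripotency genes were level as a group and split gene by gene. Of 16 naive genes compared 3 were higher and 3 lower, beside 4.04% and 3.98% of all genes (median -0.07). Tbx3, a T-box gene of ES cells and of lateral mesoderm, was at 28.1 FPKM in ME, against 4.65 at day 4 (2.37). Klf5, a Krüppel-like factor, was at 46.1 FPKM in ME, against 17.5 at day 4 (1.35), and Dppa4, a chromatin protein, at 21.1 in ME, against 6.95 at day 4 (1.47). On the lower side Dppa3, a maternal factor also called Stella, was at 1.11 FPKM in ME, against 8.18 at day 4 (-2.12), Tdh, threonine dehydrogenase, at 0.360 in ME, against 5.05 at day 4 (-2.15), and Zfp42, or Rex1, at 5.93 in ME, against 14.7 at day 4 (-1.18).

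Nanog was level, at 33.6 FPKM in ME, against 33.4 at day 4 (0.01), and above its day 6 mean of 10.5. Of 14 core and primed genes 0 were higher and 1 lower (median 0.00124, and -0.03 after centring on the median). Pou5f1, or Oct4, was at 486 FPKM in ME, against 579 at day 4 (-0.25), and 177 in the day 6 mean. The epiblast ligand Fgf5 was at 32.9 FPKM in ME, against 28.4 at day 4 (0.20), and 4.15 in the day 6 mean, and Tdgf1, the Nodal co-receptor Cripto, at 225 in ME, against 196 at day 4 (0.20). Pou3f1, or Oct6, of the anterior epiblast was lower, at 2.11 FPKM in ME, against 6.54 at day 4 (-1.28). Against the day 6 mean 7 of the 14 were higher in ME and 1 lower, with a median of 0.95.

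In the list for the switch from epithelial to mesenchymal form few genes were called. Of 16 genes 1 was higher and 1 lower, beside 4.04% and 3.98% of all genes (median 0.04, and -0.02 after quantile normalization). Snai1, the zinc finger repressor that lowers E-cadherin in the streak, was at 14.6 FPKM in ME, against 4.53 at day 4 (1.50), with a day 6 mean of 4.94. Cldn7, a tight junction claudin, was at 28.4 FPKM in ME, against 68.2 at day 4 (-1.24). The cadherins lay within the fold in opposite directions, Cdh1 (E-cadherin) at 99.3 FPKM in ME, against 161 at day 4 (-0.69), and Cdh2 (N-cadherin) at 61.7 in ME, against 37.2 at day 4 (0.72). The epithelial surface gene Epcam was at 60.8 FPKM in ME, against 96.3 at day 4 (-0.65).

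Of 9 fibroblast genes compared 0 were higher and 4 lower, beside 4.04% and 3.98% of all genes, with a median of -0.73. The median was -1.41 with a pseudocount of 0.1 and -0.29 with the filter at 5 FPKM, which left only 2 genes. Of the 9 genes, the 5 not called, among them Fbln2 at 4.30 FPKM in ME, against 2.89 at day 4 (0.45), were within the fold. Collagen Col1a1 was at 4.28 FPKM in ME, against 9.77 at day 4 (-1.03), Col1a2 at 0.754 in ME, against 4.18 at day 4 (-1.56), and the surface protein gene Thy1 at 1.55 in ME, against 5.51 at day 4 (-1.35). S100a4, a calcium-binding protein gene, was listed at 0 in ME, against 6.84 FPKM at day 4. The list summed to 14.7 FPKM in ME, 34.6 at day 4 and 86.2 in the day 6 mean. Of 10 smooth muscle and contractile genes 0 were higher and 1 lower (median -0.58). Acta2, smooth muscle actin, was at 3.81 FPKM in ME, against 8.97 at day 4 (-1.05), and 203 in the day 6 mean. Against day 6, 9 of these 10 genes were lower in ME.

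**Figure D4:**
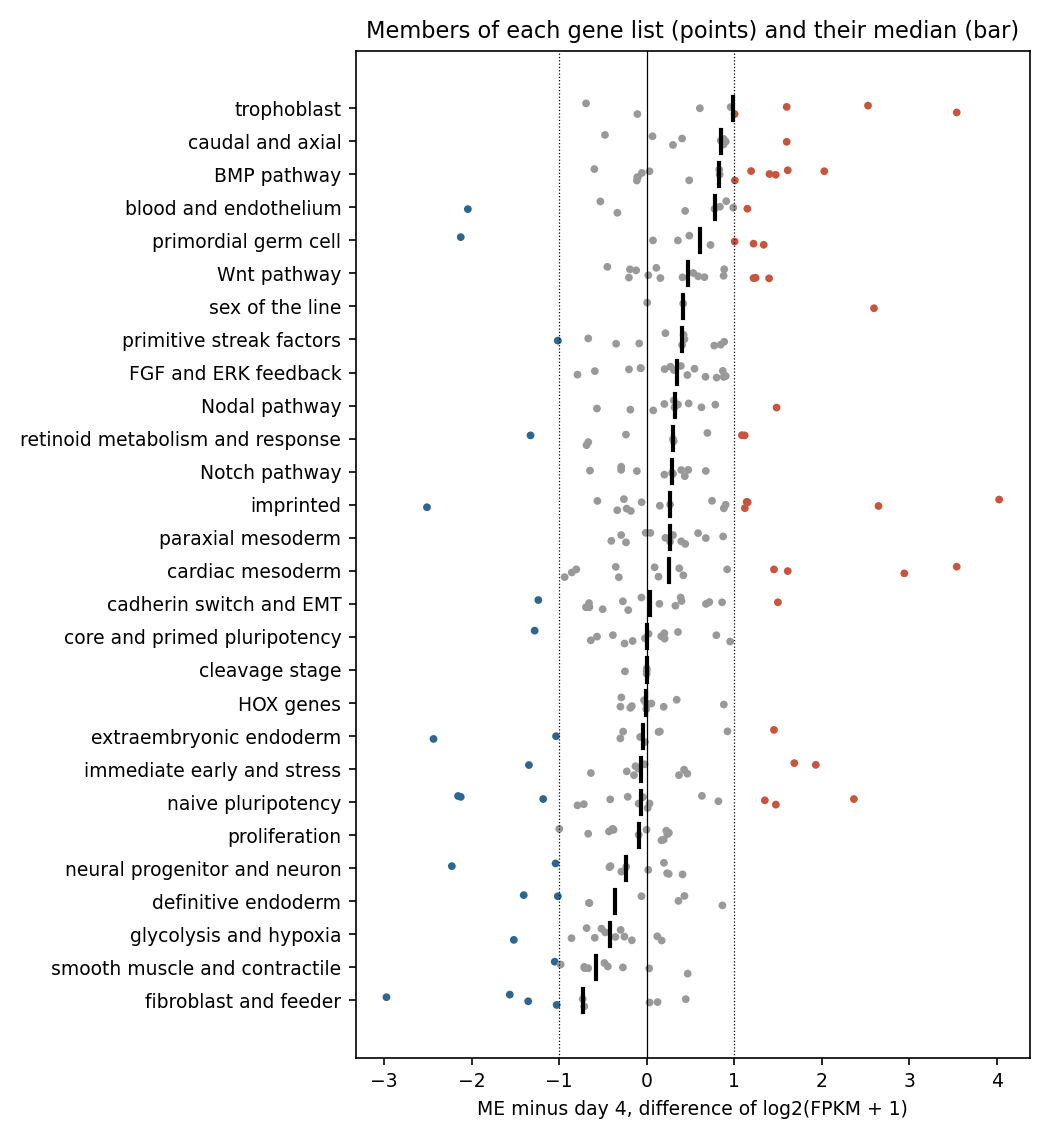
Each point is a member of one of 28 gene lists (rows) and gives its difference of log2(FPKM + 1), ME minus day 4, with red points at 1 or more, blue at -1 or less and a bar at the list's median. Medians run from 0.98 for the trophoblast list at the top to -0.73 for the fibroblast list at the bottom in the values as reported, with the BMP list at 0.83 and the streak list at 0.40.

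Imprinted genes, which are read from 1 parental copy and in ES lines depend on the culture and the line, held some of the largest differences. Of 17 compared 5 were higher and 1 lower, beside 4.04% and 3.98% of all genes (median 0.27). Igf2 (chromosome 7, 149836673 to 149846940), a fetal growth factor, was listed at 115 FPKM in ME, against 6.16 at day 4 (4.02). Over LIF withdrawal it was at 13.4, 19.8, 6.16 and 358 FPKM at days 0, 2, 4 and 6, lowest at day 4. Cdkn1c (chromosome 7, 150644244 to 150646955), the cell cycle inhibitor p57, was at 119 FPKM in ME, against 18.2 at day 4 (2.65). From the Dlk1-Dio3 domain, the maternally read RNAs Rian and Mirg were at 41.7 and 7.14 FPKM in ME, against 18.4 and 2.66 at day 4 (1.14 and 1.15). Meg3 and Dlk1 of the same domain were within the fold (0.75 and -0.06). Outside that domain, on chromosome 7, Ndn, or necdin, was at 12.5 FPKM in ME, against 5.20 at day 4 (1.12).

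Grb10 (chromosome 11, 11830502 to 11937423), an adaptor that restrains growth factor receptors, was the lower member, at 2.74 FPKM in ME, against 20.3 at day 4 (-2.51), and 67.4 in the day 6 mean. AK145379, an entry whose listed span overlaps that of H19, was at 8.13 FPKM in ME, against 95.5 at day 4 (-3.40), and 1531 in the day 6 mean. H19 itself was listed at 0.175 FPKM at day 4 and 1.34 in the day 6 mean and near 0 in ME, so the reads of this locus may stand under either entry. Igf2 and the AK145379 entry, which neighbour each other on chromosome 7, thus lay on opposite sides between ME and day 4.

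HOX genes were low in both libraries. Of 39 genes 12 were compared and 0 were called, with a median of -0.00577, or 0.07 after quantile normalization, and 8 of the 39 were listed at 0 in ME against 10 at day 4. Hoxb1, a gene of the early hindbrain and posterior streak, was at 3.27 FPKM in ME, against 2.37 at day 4 (0.34). Hoxd9 had the largest difference, at 1.11 FPKM in ME, against 0.147 at day 4 (0.88), and Hoxc11 was at 1.86 in ME, against 0 at day 4, without reaching the filter. The cluster genes summed to 16.0 FPKM in ME, 9.26 at day 4 and 48.2 in the day 6 mean. Haunt, listed as Gm15055 (chromosome 6, 52052948 to 52062531), was at 0 FPKM in ME, against 0.175 at day 4, and at 53.7 and 4.13 at days 0 and 2.

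In the retinoid list 2 of 9 genes were higher and 1 lower, beside 4.04% and 3.98% of all genes. The list's median of 0.30 turned to -0.02 without the filter on low values. The receptor gene Rara was at 12.1 FPKM in ME, against 5.05 at day 4 (1.12), and Dhrs3, which turns retinal back into retinol, at 3.22 in ME, against 0.986 at day 4 (1.09). Crabp1, a retinoic acid binding protein gene, was at 4.81 FPKM in ME, against 13.6 at day 4 (-1.33), and Aldh1a2, the enzyme that makes retinoic acid in trunk mesoderm, at 0.572 in ME, against 0.852 at day 4 (-0.24).

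Of 8 primordial germ cell genes 3 were higher and 1 lower, beside 4.04% and 3.98% of all genes (median 0.61). Ifitm1, an interferon-induced membrane protein gene of the posterior streak, was at 92.5 FPKM in ME, against 36.0 at day 4 (1.34). Dnd1, an RNA-binding protein gene of the germ line, was at 4.65 FPKM in ME, against 1.42 at day 4 (1.22), and Prdm1, or Blimp1, at 2.63 in ME, against 1.19 at day 4 (0.73). The other called members are Tfap2c and, on the lower side, Dppa3, given above. Nanos3, a germ cell RNA-binding protein gene, was at 2.86 FPKM in ME, against 0.167 at day 4, below the filter.

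Neural genes were low in both libraries, and of 11 compared 0 were higher and 2 lower (median -0.23). Olig2, a bHLH gene of the ventral spinal cord, was listed at 0 in ME, against 3.68 FPKM at day 4, and Tubb3, neuronal tubulin, at 1.81 in ME, against 4.78 at day 4 (-1.04). Sox1 was at 0.162 FPKM in ME, against 0.274 at day 4, and Pax6 at 0.127 in ME, against 0.377 at day 4. The list summed to 76.1 FPKM in ME and 104 at day 4, of which Nes, an intermediate filament gene of many progenitors, was 65.6 in ME, against 87.7 at day 4.

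The cell state lists differed in few members. Of 12 immediate early and stress genes 2 were higher and 1 lower (median -0.06). Egr1 was at 16.4 FPKM in ME, against 3.56 at day 4 (1.93), and Junb at 49.5 in ME, against 14.7 at day 4 (1.69). Both are transcription factors that growth factors or handling switch on quickly. Of these libraries ME was sorted and day 4 was not, and NPC, which was also sorted, had 4.19 FPKM of Egr1 and 1.77 of Junb. The part of the sort in these values was not tested. Atf3, a stress-induced factor, was at 4.09 FPKM in ME, against 11.9 at day 4 (-1.34). Of 13 proliferation genes 0 were called (median -0.09), with Pcna, the sliding clamp of replication, just inside the fold at 78.8 FPKM in ME, against 158 at day 4 (-0.998). Of 12 glycolysis and hypoxia genes 0 were higher and 1 lower (median -0.42). It was the glucose transporter Slc2a3, at 96.2 FPKM in ME, against 277 at day 4 (-1.52), and Slc2a1 was at 85.0 in ME, against 155 at day 4 (-0.86). Of 4 cleavage-stage genes compared 0 were called, and the Zscan4 genes were listed at 0 in both libraries.

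Y-linked genes were detected in both libraries, and 1 of 3 compared was called higher. Eif2s3y was at 18.7 FPKM in ME, against 2.26 at day 4 (2.60), while the day 6 mean was 26.1. Ddx3y was at 2.50 FPKM in ME, against 1.62 at day 4 (0.42), and Uty at 1.73 in ME, against 1.72 at day 4 (0.01). Xist, the RNA that silences an X in female cells, was at 0.00139 FPKM in ME, against 0.310 at day 4.

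Ranked by size alone, the list of differences held short RNAs, entries listed at 0 in 1 library and entries that overlap another. Among the largest on the lower side were the small nucleolar RNAs Snora41, Snora44 and Snora30, listed at 0 in ME, against 2821, 1572 and 865 FPKM at day 4, and at 120.0, 278 and 95.2 in the day 6 mean. Each was also listed at 0 in NPC. In the day 2 mean and NSC, Snora41 and Snora30 were at 0 and Snora44 at 286 and 467. Such RNAs are shorter than a usual sequencing fragment and carry no poly(A) tail, by which these libraries were selected. Rpl34, a ribosomal protein gene, was at 12.7 FPKM in ME, against 2051 at day 4 (-7.23), and its pseudogene Rpl34-ps1, whose listed span overlaps it, near 0 in ME, against 878 at day 4. The low value was not particular to ME, as Rpl34 was at 17.7 in the day 2 mean, 7.88 in NPC and 16.9 in NSC. It was at 1515 and 696 in the day 0 and day 6 means. Of the 506 higher genes 22 were listed at 0 at day 4, and of the 498 lower genes 62 were listed at 0 in ME. On the higher side Sept7, a septin gene, was at 231 FPKM in ME, against 0 at day 4 and 0 in the day 6 mean, and Rn45s, the ribosomal RNA precursor, at 183 in ME, against 0 at day 4 and 151 in the day 6 mean. An exact 0 in genes that every cell uses may be a failed estimate, so these are given as listed, without a fold.

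Among longer entries with values above 0 in both libraries, several further genes stood apart, which were named after their values were seen. Mid1 (chromosome X, 166123179 to 166428729), a ubiquitin ligase gene, was at 259 FPKM in ME, against 3.29 at day 4 (5.93). It was at 171 and 116 FPKM in NPC and NSC, the other columns of strain 129/Ola, and between 0.624 and 3.70 at days 0 to 6. Gbp2b, an interferon-induced GTPase gene, was at 89.6 FPKM in ME, against 0.117 at day 4 (6.34), and at 5.49, 42.4, 0.117 and 67.5 at days 0, 2, 4 and 6. Its day 4 value is below 1 FPKM, and its difference from the day 6 mean was 0.40. Tnni3, cardiac troponin I, was at 17.2 FPKM in ME, against 3.42 at day 4 (2.05), unlike the troponin T gene above. Six2, a homeobox gene of mesenchyme, was at 18.2 FPKM in ME, against 4.12 at day 4 (1.91).

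On the lower side Emb, the membrane glycoprotein embigin, was at 27.9 FPKM in ME, against 145 at day 4 (-2.34). S100a6, a calcium-binding protein gene, was at 12.8 FPKM in ME, against 66.0 at day 4 (-2.27), and Sfn, or stratifin, an epithelial 14-3-3 protein gene, at 674 in ME, against 2180.1 at day 4 (-1.69). Ckb, brain creatine kinase, was at 15.4 FPKM in ME, against 53.7 at day 4 (-1.73), and 51.0 or more in every other column. Among the genes nearest the fold were BC028528, called at 2.85 FPKM in ME, against 0.921 at day 4, and Mtmr4, called at 6.61 in ME, against 14.2 at day 4. Just outside it lay Cops7b, at 7.14 FPKM in ME, against 15.3 at day 4, and Map3k8, at 0.206 in ME, against 1.41 at day 4.

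Entries present in 1 library alone were few. At 1 FPKM or more 173 entries were present in ME alone of the 7 columns, 121 of them with a gene symbol, against 88 for day 4 alone, 63 with a symbol. The highest of the ME entries was the unnamed locus XLOC_008617 on chromosome 15, at 72.7 FPKM in ME and 0 at day 4. Among the named ones were Gm15104, at 9.72 FPKM in ME, against 0 at day 4, Cda, cytidine deaminase, at 3.89 in ME, against 0.192 at day 4, and Rab37, a small GTPase gene, at 3.23 in ME, against 0.715 at day 4. ME was the highest of the 7 columns in 48.0% of the genes called higher, against 10.5% of all genes, and day 4 was the lowest in 38.7%, against 13.6%. Those shares are bound up with the call itself and describe it only.

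Differences also ran along chromosomes. Over 7092 genes of at least 5 FPKM in the mean of both libraries the median difference was 0.03. It was -0.26 for 389 genes of chromosome 1, -0.24 for 616 genes of chromosome 11 and 0.24 for 438 genes of chromosome 8. Of all genes compared, 49 on chromosome 8 were called higher and 15 lower (7.04% and 2.16%), beside 4.04% and 3.98% over all chromosomes. On chromosome 1 the counts were 13 and 49 (1.85% and 6.97%) and on chromosome 11 they were 22 and 67 (2.17% and 6.62%). Set against the day 2 mean were only genes of at least 5 FPKM in all 7 columns, 297, 315 and 472 on chromosomes 1, 8 and 11. These chromosomes stood at -0.11, 0.08 and -0.10 in ME and at 0.18, -0.21 and 0.14 at day 4. All 3 chromosomes were shifted further from the day 2 mean at day 4 than in ME. Other shifts were as large, with chromosome 19 at -0.27 at day 4 (-0.15 in ME) and chromosome 8 at -0.29 in NPC. Foxf1 (2.94) and Junb (1.69) lie on chromosome 8, and Hand1 (3.54) and Grb10 (-2.51) on chromosome 11. Sparc (-1.04), Col1a1 (-1.03) and Cldn7 (-1.24), also on chromosome 11, were left within the fold by centring on each chromosome. For 8 mitochondrial genes the median was 0.72, with Cytb, cytochrome b, at 1542 FPKM in ME, against 418 at day 4 (1.88). Whether the lines differ in chromosome copies was not tested.

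**Figure D5:**
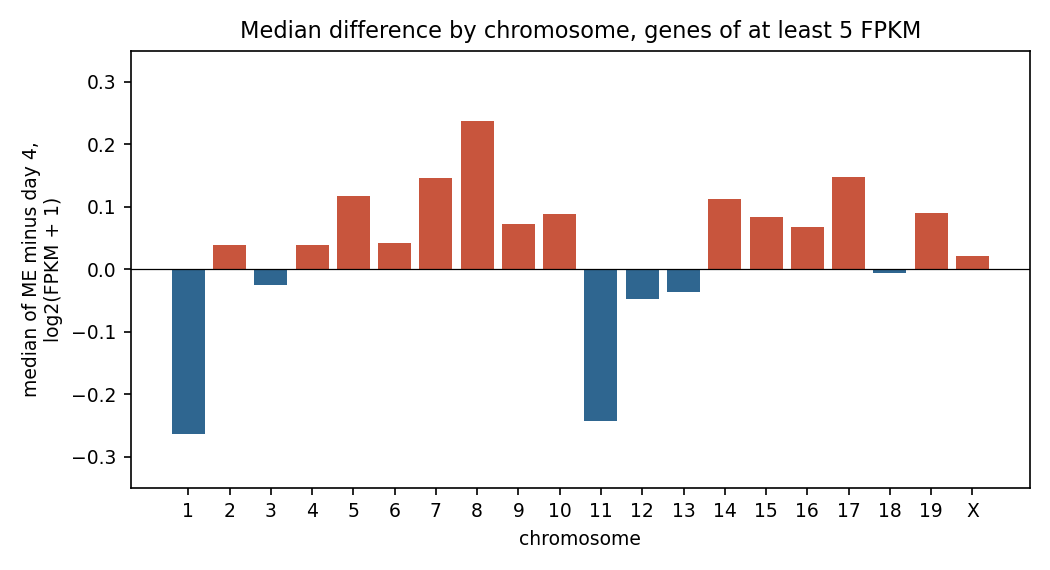
Bars give the median difference of log2(FPKM + 1), ME minus day 4, for the genes of each chromosome with at least 5 FPKM in the mean of both libraries, with chromosomes on the x axis. Chromosomes 1 and 11 stand lowest at -0.26 and -0.24 and chromosome 8 highest at 0.24.

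ME was also set beside unsorted cells of its own day. Against the day 6 mean 268 genes were higher in ME (2.14%) and 950 lower (7.59%), while the day 6 mean was above day 4 in 816 genes (6.52%) and below it in 218 (1.74%). These comparisons share libraries with that against day 4, and the day 6 column averages 3 lines. Of the genes called between ME and day 4, Hand1, Igf2, Bmp4, Msx2, Smad7, Foxf1, Cdx2 and Lmo2 were higher in ME than at day 4 but lower than in the day 6 mean, with differences from day 6 of -1.79, -1.62, -1.34, -0.59, -0.46, -0.31, -0.25 and -0.27. Tbx3, Gata4, Gata3, Snai1, Foxh1, Msx1 and Id1 stood above both. Their differences from day 6 were 0.31, 1.06, 0.35, 1.40, 1.01, 0.83 and 0.35, so only Gata4, Snai1 and Foxh1 reached the fold there. Of the 11 streak factors 10 were within the fold of day 4 and 9, with the gated gene T among them, were above the day 6 mean by the fold.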

How the data were processed

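The FPKM values were made and deposited by the authors, and no header names their unit, which was judged from their range and steps. In the submitters' processing notes stand the build mm9 and, with no role stated, TopHat2 2.0.11, Bowtie 1.0.0, CASAVA and MACS 1.4.2. Which program gave the FPKM is not stated there. Whether counting used strand is not stated, so overlapping, antisense and near-identical genes are uncertain. Left out were 11 entries with a repeated symbol and 1 with an empty ME value, and 400 of the 12510 entries compared are unnamed assembled loci (XLOC). Python 3.11.15 with pandas 2.3.3 and numpy 2.4.6 took differences of log2(FPKM + 1), with a pseudocount of 1. Entries that reached 1 FPKM in fewer than 2 of the 7 columns were left out, and a call needs 1 log2 unit. The fold rule was tested on simulated data. These held counting noise only and planted changes larger than the fold, so they do not speak to the spread between libraries.

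Named are the markers, the entries with the 25 largest differences each way, the 10 highest of those in ME alone, and up to 8 leading members of each of 28 lists, or any member of the streak, paraxial, caudal, pluripotency and HOX lists. From the ranked entries only examples are printed, and some further list members are given for contrast. The members and lists were chosen with earlier results of these data known. There was 1 library per group, so no test was run, and nothing in the labels gives separate cultures. Promoter windows are RefSeq's, on GRCm38.p6, and cover 8844 of 12110 named genes compared. Alternatives were the pseudocount, the filter, the scaling and the day 6 column.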

Additional observations from a re-analysis of the deposited data

How the results depend on the processing

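With a pseudocount of 0.1 the counts were 975 genes higher and 1130 lower in ME, and with a filter of 5 FPKM in 2 columns 328 and 304. With the day 6 mean in place of day 4 they were 268 and 950. Among named genes of span at least 1000 bp with 1 FPKM in both libraries, an alternative added after seeing the data, they were 318 and 239. Fewer genes are counted in the stricter selections by their construction. Without a filter the counts were 591 and 544, centred on the median 481 and 541, after quantile normalization 480 and 539, and centred on each chromosome, also added later, 453 and 517. In place of day 4 the day 6 mean turned the sign of 14 of 102 genes followed: Foxa2 0.12, Cdx2 -0.25, Hand1 -1.79, Foxf1 -0.31, Bmp4 -1.34, Lmo2 -0.27, Dppa4 -0.16, Notum -0.35, Msx2 -0.59, Smad7 -0.46, Igf2 -1.62, Ndn -0.22, Eif2s3y -0.46 and Cuedc2 -0.57. The cause was not tested. It left 34 called genes without a call. Centring on chromosomes left 6 of them within the fold, Sparc, Tfap2c, Col1a1, Cldn7, Ndn and Eif2s3y, the last of which is the single gene of its chromosome in that step, and centring on the median 2, Tfap2c and Smad7. Under these scalings 0 of the 102 changed sign, with a median shift of 0.09 centred on chromosomes and 0.03 centred on the median. Shifts this small beside a fold of 1 log2 unit make that count no check of the calls. A change of pseudocount cannot turn the sign of a difference. No paired analysis was possible because each group has 1 library. With about 40.6 and 36.5 M reads, values well below 1 FPKM in short genes rest on few reads.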
